A study of Mus musculus with 6 samples.

Results

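Expression of 10 genes that write, read or erase DNA methylation was examined in 3 clonal lines of mouse B cells, by transcript level and by parental allele. The genes were taken by name from the deposited tables: the methyltransferases Dnmt1, Dnmt3a and Dnmt3b, their cofactor Uhrf1 and its relative Uhrf2, the dioxygenases Tet1, Tet2 and Tet3, the glycosylase Tdg and the methyl-CpG binding protein Mbd2. All 10 were among the 37315 genes of the abundance table, and all 10 passed the filter of a mean of at least 1 TPM that left 11003 genes to test. The allele table held 9 of them among 19402 genes, and 8 passed the minimum of 20 allelic counts in every library, as 8702 genes did. Tet1 did not pass it, and the alleles of Mbd2 were not analysed here.

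Abl.2 and Abl.4, which are female, and Abl.3, which is male, are immortalised B cells of F1 mice from the cross 129S1/SvImJ x CAST/EiJ. Sequence differences between the strains thus tell the alleles apart. With 1 cross for all lines, parent of origin, strain and read mapping cannot be told apart where lines share a skew. Each line is 1 clone, and all were control cells in medium with 1% DMSO, a solvent, collected on day 2. There were 2 library preparation replicates per line (6 libraries), so p-values below cover the spread between library preparations and not that between cultures, clones or animals, and sex cannot be told apart from clone. The allelic counts of a library summed to between 18362319 and 26881211. The summed level of 8 B lineage markers was 12566 to 13938 TPM per library and all 8 passed the filter, while the T cell markers Cd3e, Cd3d, Cd4 and Cd8a stayed at or below 0.07 TPM, the T cell kinase gene Lck was at 1.25 to 2.34 TPM and the erythroid markers summed to at most 1.86 TPM. Of 5 myeloid markers, 2 passed the filter and they moved apart. Lyz2, on chromosome 10, was at 70.8 to 193 TPM, highest in Abl.2, and Itgam was at 0.35 to 0.97 TPM in Abl.2 and Abl.3 and at 6.89 and 6.74 TPM in Abl.4, with Mpo at or below 0.81 TPM, Csf1r at or below 0.3 TPM and Elane at 0. Csf1r nonetheless held at least 219 allelic counts in every library, so its 2 measures differ. Whether these levels bear on the genes below was not tested.

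Cytosines in CpG dinucleotides are methylated anew by DNMT3A and DNMT3B, and DNMT1 copies the marks onto the new strand after replication, guided there by UHRF1. TET enzymes oxidise the methyl group, and TDG excises the oxidised bases so that base excision repair can put back an unmodified cytosine. MBD2 binds methylated CpGs and is a subunit of the NuRD chromatin remodelling complex. In the B lineage these enzymes are known for their part in differentiation, and TET2 and DNMT3A are often mutated in blood cancers.

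The widest differences between the lines lay in the erasers Tet1 and Tet2. Tet1 was near 0 in Abl.2, was read from both alleles in Abl.3, and gave counts from the paternal allele alone in Abl.4. Tet2 was at its highest in Abl.4, and in Abl.2 it came almost wholly from the paternal allele. Dnmt3b was at about the same level in Abl.2 and Abl.4 and lower in Abl.3, from both alleles, and Tdg in Abl.2 was skewed to the paternal allele as its chromosome was. For these 4 genes and the others, the plot of levels and the paragraphs below give every library. The plot of maternal shares gives line means for Tet1, Tet2, Tdg and their neighbours.

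**Figure D1:**
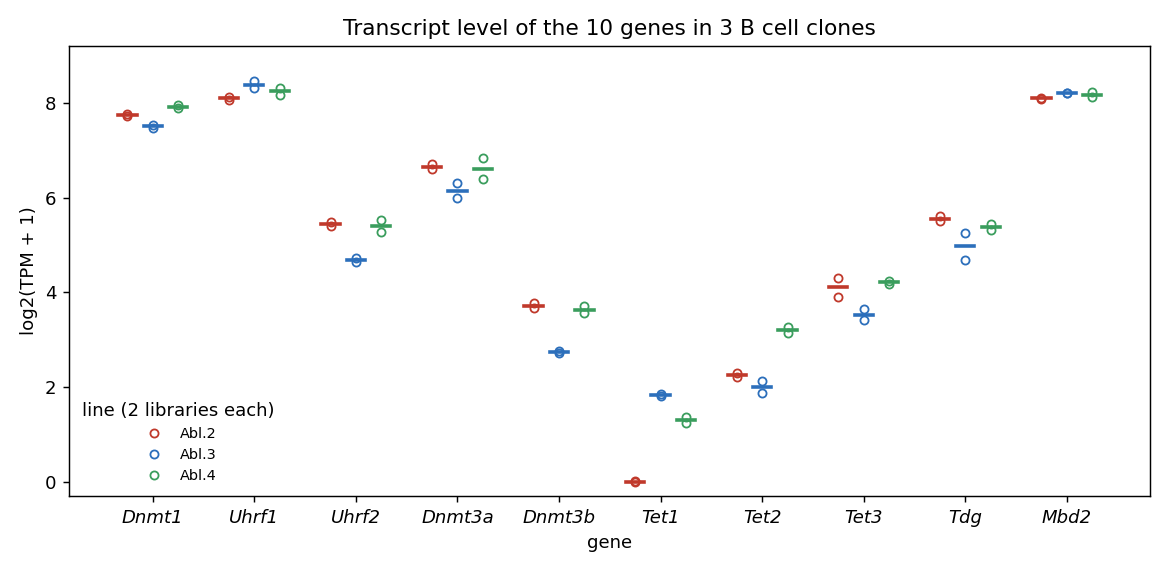
Transcript level of the 10 genes as log2(TPM + 1), with 1 point per library (2 per line), a bar at the mean of each line and the lines told apart by colour. Tet1 in Abl.2 is the lowest value, at 0 and 0.01 TPM, while Uhrf1, Mbd2 and Dnmt1 lie at or above 176 TPM in all 6 libraries.

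Levels in TPM are by definition scaled to transcript length, and on that basis they are set beside each other between genes. How the deposited TPM were computed is not given in the sources used here. In Abl.2 the order of mean levels was Mbd2 (272 ± 4.14 TPM, SD, n = 2), Uhrf1 (272 ± 8.88), Dnmt1 (213 ± 3.58), Dnmt3a (99.9 ± 5.32), Tdg (46.0 ± 2.26), Uhrf2 (42.6 ± 2.16), Tet3 (16.4 ± 3.47), Dnmt3b (12.1 ± 0.672), Tet2 (3.80 ± 0.205) and Tet1 (0.005 ± 0.00707). Only the libraries of Mbd2 and Uhrf1 overlapped among neighbours in that order. In Abl.3 Uhrf1 (334 TPM) stood above Mbd2 (294 TPM) without overlap, while Tdg (31.0 TPM) and Uhrf2 (24.7 TPM) overlapped. In Abl.4 Uhrf1 (302 TPM) overlapped with Mbd2 (288 TPM), and Uhrf2 (41.5 TPM) with Tdg (40.9 TPM). Dnmt1, the maintenance enzyme, thus stood above both de novo enzymes in every library, Tet3 was the highest of the 3 TET genes in every library, and Tet1 was the lowest of the 10 genes in each line. Among the 11003 tested genes, the mean over all libraries put Uhrf1 at percentile 94.5, Mbd2 at 94.2 and Dnmt1 at 91.5, with Tet2 at 18.9 and Tet1 at 3.03. In these bulk libraries, fewer cells with a transcript and less of it per cell cannot be told apart.

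Between lines, levels were tested with limma on log2(TPM + 1) across all genes, with Benjamini-Hochberg adjustment. Between Abl.2 and Abl.3, 7 of the 10 genes passed an adjusted p of 0.05, 5 of them higher and 2 lower in Abl.2, where 39.8% of all tested genes passed (25.9% higher and 14.0% lower in Abl.2). Between Abl.2 and Abl.4, 2 of 10 passed, both lower in Abl.2, beside 33.5% of all genes (15.0% higher and 18.4% lower in Abl.2). Between Abl.3 and Abl.4, 5 of 10 passed, all lower in Abl.3, beside 38.1% of all genes (11.3% higher and 26.8% lower in Abl.3). The median difference of the 10 genes was 0.38, -0.09 and -0.44 on the log2 scale in these 3 comparisons, and that of all tested genes was 0.10, -0.03 and -0.15. Dnmt1, Dnmt3b, Uhrf2 and Tet3 passed as lower in Abl.3 than in each of the other lines, which share the Abl.3 libraries, and 14.6% of all genes did so. Markers of the B lineage moved between the lines as well: of 8, 5 passed as higher and 0 as lower in Abl.2 than in Abl.3, 2 and 2 against Abl.4, and 2 and 4 between Abl.3 and Abl.4, with medians of 0.26, 0.05 and -0.33. Pax5, the factor that holds B cell identity, on chromosome 4, was at 246 and 207 TPM in Abl.2, 56.2 and 64.0 TPM in Abl.3, and 156 and 165 TPM in Abl.4. It was higher in Abl.2 than in Abl.3 by 1.89 (limma adjusted p = 6.52e-05) and lower in Abl.3 than in Abl.4 by -1.41 (limma adjusted p = 0.00027). The part of these markers in the levels of the 10 genes was not tested.

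**Figure D2:**
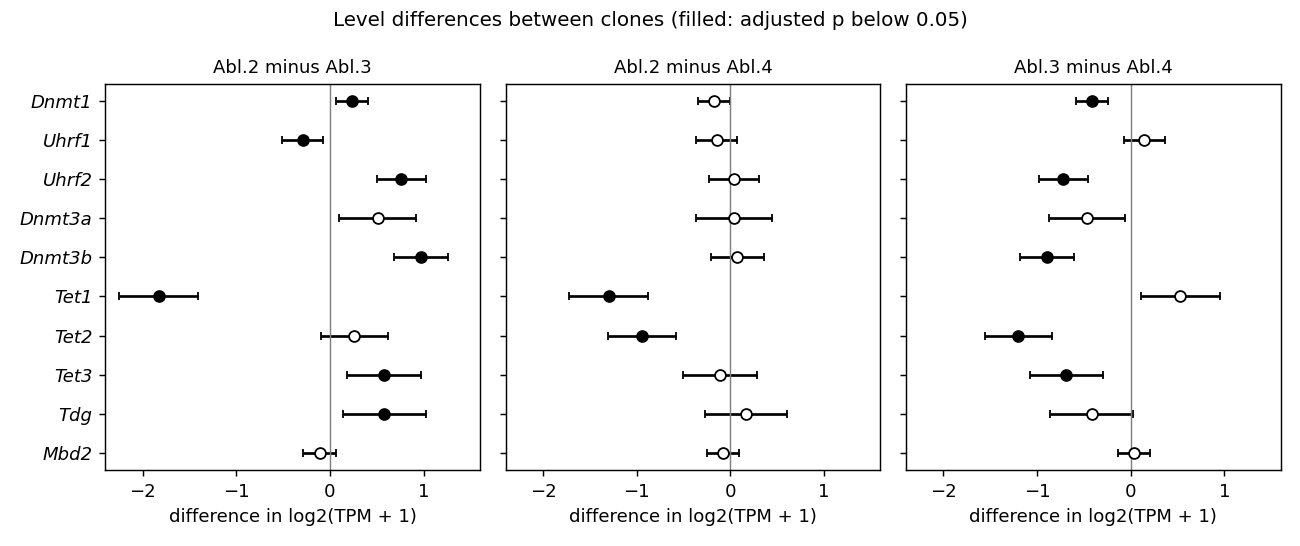
Difference in log2(TPM + 1) between lines for each of the 10 genes, as points with 95% confidence intervals from limma, for the 3 pairs of lines; filled points have an adjusted p below 0.05. The intervals of Tet1 in both comparisons with Abl.2 and of Tet2 in both comparisons with Abl.4 lie wholly below 0, and those of Mbd2 hold 0 in all 3 comparisons.

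Tet1 (ENSMUSG00000047146, chr10:62804570-62908996, minus strand, GRCm38) encodes the TET dioxygenase with a CXXC domain that binds unmethylated CpGs. Its level was 0 and 0.01 TPM in the 2 libraries of Abl.2, 2.61 and 2.54 TPM in Abl.3, and 1.38 and 1.57 TPM in Abl.4. The 3 lines did not overlap, although the values of Abl.4 and Abl.3 are themselves low. With a mean of 1.35 TPM over all libraries, Tet1 passed the filter only through Abl.3 and Abl.4. The tests against Abl.2 thus set that line beside the lines that carried the gene through. Tet1 was lower in Abl.2 than in Abl.3 by a difference of -1.83 on the log2(TPM + 1) scale (SE 0.174, limma adjusted p = 0.000492). Against Abl.4 the difference was -1.30 (SE 0.174, limma adjusted p = 0.00214). Both calls were kept in all 14 alternative settings that set no minimum size of the difference, which are the alternatives meant below, with adjusted p from 6.46e-09 to 0.00624 and from 5e-05 to 0.0135. No fold is given, since Abl.2 is listed at or near 0. Abl.3 stood above Abl.4 by 0.53 (SE 0.174, limma adjusted p = 0.0525), which missed the threshold; the alternatives put this adjusted p between 0.00488 and 0.151, below the threshold in 6 of 14, among them the fit without replicate 2 of Abl.4 (0.0492). Of 9653 genes with at least 2 TPM in both Abl.3 libraries, 31 were at or below 0.01 TPM in Abl.2. These cut-offs lie close to the values of Tet1 itself and only its direction was counted, so the count is a description.

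The allele counts of Tet1 were few. In Abl.2 the libraries held 0 and 2 allelic counts, too few for a share. In Abl.3, 85 of 151 counts were maternal in replicate 1 and 46 of 92 in replicate 2, a mean maternal share of 0.531 ± 0.0445 (SD, n = 2). In Abl.4, 0 of 48 counts in replicate 1 and 0 of 16 in replicate 2 were maternal. A count of 0 allows a maternal share of up to 6.25% in the first and 18.8% in the second, which was also under the minimum of 20 counts. Abl.3 was thus close to even and no maternal count was seen in Abl.4. With counts this low, the difference is given as a description. A fit of Abl.3 and Abl.4 alone with a minimum of 10 counts was chosen after the data were seen. There the log2 allele ratio was higher in Abl.3 by 8.16 (edgeR adjusted p = 0.002), and 15.4% of all genes passed. It was -7.97 within Abl.4 (edgeR adjusted p = 0.000458) and 0.19 within Abl.3 (edgeR adjusted p = 0.768). The maternal count of 0 leaves the sizes of 8.16 and -7.97 undetermined.

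By allele, Tet1 had 4.28 and 2.51 maternal and 3.32 and 2.51 paternal CPM (an allele's counts scaled to the allelic total of the library) in Abl.3, and 0 maternal and 2.40 and 0.800 paternal in Abl.4. The paternal values of Abl.3 lay above those of Abl.4. With the filter lowered to a mean of 10 allelic counts, that difference did not pass (0.86, log2, edgeR adjusted p = 0.311). The maternal difference, against counts of 0 in Abl.4, did pass (edgeR adjusted p = 0.000376). At counts this low, these too are given as a description. The nearest tested neighbours of Tet1 were near even in Abl.4, with maternal shares of 0.477 (Ccar1) and 0.498 (Slc25a16). The 40 tested genes within 5 Mb had a median of 0.506 in Abl.4. Of those 40, 0 lay below a share of 0.1 and 2 above 0.9, the highest at 0.944. In the authors' deposited table, Tet1 has a maternal fraction of 0.54 in Abl.3, with limits of 0.26 and 0.81, and no value in the other lines.

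A promoter window of Tet1 is printed because the gene was near silent in 1 line and on 1 allele of another. CpGs are the substrate of the enzymes described here. The sequences of this window and that of Tet2 are the 250 bases before a transcript start in RefSeq on GRCm38.p6. They run 5′ to 3′ on the minus strand, with each CpG in capitals. The starts are 62887324 for Tet1 and 133544390 for Tet2. Both lie inside the gene spans given here, that of Tet1 well inside its 5′ end at 62908996. Which start these cells use was not examined, and no methylation was measured in these data. Promoters were matched by symbol for the 9 genes looked up, Mbd2 being left out, and CG was the motif searched. It reads the same on both strands.
Tet1, chr10:62887325-62887574: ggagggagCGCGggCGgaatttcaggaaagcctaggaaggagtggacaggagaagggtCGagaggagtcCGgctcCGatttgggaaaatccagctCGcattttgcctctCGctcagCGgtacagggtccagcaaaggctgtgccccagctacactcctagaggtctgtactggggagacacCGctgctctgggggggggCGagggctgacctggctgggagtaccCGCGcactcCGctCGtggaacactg
Tet2, chr3:133544391-133544640: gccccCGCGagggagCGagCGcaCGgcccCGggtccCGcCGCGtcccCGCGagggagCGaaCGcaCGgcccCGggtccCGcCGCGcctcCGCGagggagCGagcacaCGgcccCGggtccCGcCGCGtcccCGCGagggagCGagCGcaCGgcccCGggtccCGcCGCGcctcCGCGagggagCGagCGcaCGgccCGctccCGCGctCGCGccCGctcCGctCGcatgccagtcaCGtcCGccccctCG
The Tet1 window holds 15 CpGs, and 27.3% of the 32851 promoters of the same length hold as many or more. The Tet2 window holds 51, a number reached by 0.067% of promoters, against a median of 6. At least 1 CpG is present in 92.1% of promoters, so a match by itself marks neither gene.

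Tet2 (ENSMUSG00000040943, chr3:133463679-133545139, minus strand, GRCm38) encodes a dioxygenase without a CXXC domain of its own. Its level was 3.65 and 3.94 TPM in Abl.2, 2.69 and 3.35 TPM in Abl.3, and 7.81 and 8.64 TPM in Abl.4. Both libraries of Abl.4 lay above all others, and those of Abl.3 below all others. Abl.2 was lower than Abl.4 by a difference of -0.94 on the log2(TPM + 1) scale (SE 0.149, limma adjusted p = 0.00416) and Abl.3 by -1.20 (limma adjusted p = 0.00162). These calls were kept in all 15 alternatives, with adjusted p of at most 0.0377 and 0.0157. Abl.2 and Abl.3 differed by 0.26 (limma adjusted p = 0.214), which did not pass.

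The maternal share of Tet2 was 0.00355 and 0.00658 in the libraries of Abl.2, from 3 of 844 and 7 of 1064 allelic counts. The 95% Wilson intervals reach up to 1.04% and 1.35%; as for every interval or limit here, only the error of counting is covered, as the libraries carry no molecular identifiers and reads may be copies of 1 molecule. In Abl.3 the share was 0.440 and 0.424, from 584 and 724 counts, and in Abl.4 it was 0.470 and 0.460, from 1561 and 1628 counts. Abl.2 was thus read almost wholly from the paternal allele, and the other lines from both. The log2 ratio of maternal to paternal counts was lower in Abl.2 by -7.13 than in Abl.3 (edgeR adjusted p = 2.24e-09) and by -7.33 than in Abl.4 (edgeR adjusted p = 1.74e-09). Between Abl.3 and Abl.4 it did not pass (-0.19, edgeR adjusted p = 0.509).

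Maternal Tet2 was at 0.132 and 0.260 CPM in Abl.2, 12.9 and 16.7 in Abl.3, and 36.6 and 37.4 in Abl.4. Paternal Tet2 was at 37.0 and 39.3 CPM in Abl.2, 16.5 and 22.7 in Abl.3, and 41.4 and 43.9 in Abl.4. The paternal values of Abl.2 thus lay above those of Abl.3 and below those of Abl.4, without overlap, while its maternal values lay below both. Paternal Tet2 in Abl.2 was higher than in Abl.3 by 0.97 (log2, edgeR adjusted p = 0.000265), and its difference of -0.16 from Abl.4 did not pass (edgeR adjusted p = 0.461). In Abl.3 both alleles were lower than in Abl.4, the maternal by -1.32 (edgeR adjusted p = 0.000156) and the paternal by -1.13 (edgeR adjusted p = 0.000144).

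The skew of Tet2 in Abl.2 was not shared by its nearest tested neighbours on chromosome 3. In Abl.2 these had maternal shares of 0.531 (Ppa2), 0.552 (Gstcd) and 0.441 (Cenpe). They were not all close by, with midpoints at -160.2, -467.5 and 1739 kb from that of Tet2. The 26 tested genes within 5 Mb had a median of 0.477. Of those 26, 4 lay below a share of 0.1 in Abl.2, the lowest at 0.000853, against 1 in Abl.3 and 1 in Abl.4. Tbck, further off on the same side, was at 0.152 in Abl.2 and at 0.146 and 0.155 in the other lines. Outside chromosomes 4 and 10, 84 of 7495 autosomal genes (1.12%) had an Abl.2 share at or below that of Tet2. At or below a share of 0.1 there were 214, of which 34 lay between 0.3 and 0.7 in both other lines. Neighbours were chosen after the share of Tet2 had been seen. Exons of Tet2 share bases with the antisense gene Gm42567, and whether counting used strand is not given in the sources used here.

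**Figure D3:**
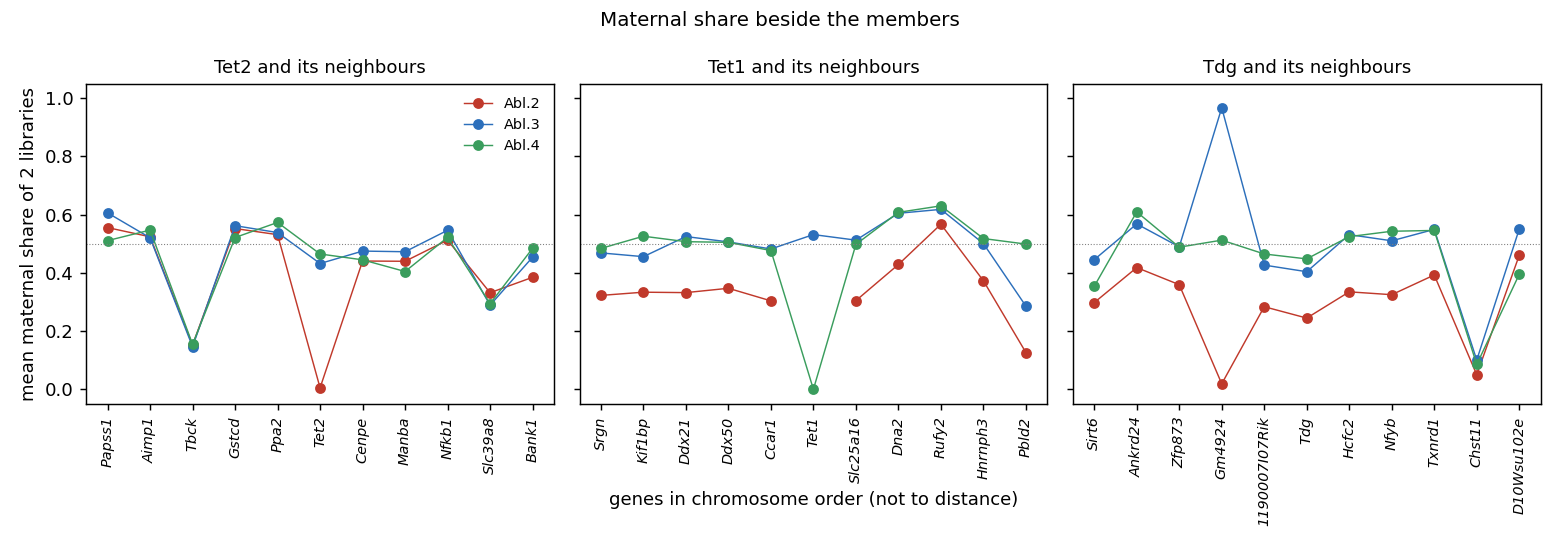
Maternal share of Tet2, Tet1 and Tdg and of the 5 nearest tested genes on each side, in order along the chromosome and not to distance, with each point the mean of the 2 libraries of a line and the lines told apart by colour. Tet2 in Abl.2 lies at 0.00507 and Tet1 in Abl.4 at 0 (48 and 16 counts, the latter under the minimum) with their nearest neighbours in those lines between 0.441 and 0.552, Tet1 has no point in Abl.2, and Tdg lies at 0.245 in Abl.2.

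Tet3 (ENSMUSG00000034832, chr6:83362373-83459084, minus strand, GRCm38), the TET gene with the highest level here, was at 18.8 and 13.9 TPM in Abl.2, 11.5 and 9.62 TPM in Abl.3, and 17.1 and 18.0 TPM in Abl.4. The libraries of Abl.3 lay below those of the other lines, and Abl.2 and Abl.4 overlapped. Abl.2 was higher than Abl.3 by 0.58 on the log2(TPM + 1) scale (SE 0.164, limma adjusted p = 0.0319), and Abl.3 was lower than Abl.4 by -0.69 (limma adjusted p = 0.0187). These calls were not firm. When single libraries were left out, the first adjusted p ranged from 0.0305 to 0.165 and passed only without replicate 2 of Abl.2, and the second ranged from 0.0206 to 0.109 and passed only without a library of Abl.2. Both were also lost with quantile normalisation (adjusted p = 0.123 and 0.112) and with libraries centred on their medians (0.104 and 0.0782), and the first without the filter (0.0769). The maternal share lay near even, at 0.543 and 0.518 in Abl.2, 0.488 and 0.473 in Abl.3, and 0.515 and 0.478 in Abl.4, and no test of its allele balance passed.

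Tdg (ENSMUSG00000034674, chr10:82629828-82650799, plus strand, GRCm38), the glycosylase that removes oxidised methylcytosine, was at 44.4 and 47.6 TPM in Abl.2, 24.7 and 37.3 TPM in Abl.3, and 38.9 and 42.8 TPM in Abl.4. The Abl.2 libraries were highest and the lines did not overlap, though the replicates of Abl.3 lay far apart. Abl.2 was higher than Abl.3 by 0.58 (SE 0.184, limma adjusted p = 0.046). This call was lost without the filter (limma adjusted p = 0.109), with quantile normalisation (0.12) and with libraries centred on their medians (0.126). Without replicate 1 of Abl.3 the difference fell to 0.29, and over the fits that left out 1 library the adjusted p ranged from 0.0102 to 0.192, passing only without replicate 2 of Abl.3. Against Abl.4 the difference of 0.17 did not pass (limma adjusted p = 0.523). It passed in 2 of 15 alternatives, both with summed allelic counts in place of TPM (0.59, edgeR adjusted p = 0.000664; 3.11e-07 to 0.791 over the alternatives). The levels of Tdg are uncertain by the reads of the pseudogene Tdg-ps, listed at 0.52 to 1.63 TPM, and exons of Tdg share bases with Glt8d2, listed at no more than 0.06 TPM.

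The maternal share of Tdg was 0.235 and 0.254 in Abl.2, 0.401 and 0.407 in Abl.3, and 0.443 and 0.453 in Abl.4, from 1589 to 3722 allelic counts per library. Abl.2 was the most paternal and no line overlapped another. The log2 allele ratio in Abl.2 was lower by -1.06 than in Abl.3 (edgeR adjusted p = 2.56e-05) and by -1.32 than in Abl.4 (edgeR adjusted p = 4.87e-06). The paternal allele was at 108 and 103 CPM in Abl.2, 48.1 and 51.4 in Abl.3, and 50.8 and 51.6 in Abl.4, so that Abl.2 was higher by 1.09 (edgeR adjusted p = 2.04e-06) and by 1.04 (edgeR adjusted p = 3.85e-06) on the log2 scale. The maternal allele, at 33.1 and 35.2 CPM in Abl.2, 32.2 and 35.2 in Abl.3 and 40.3 and 42.8 in Abl.4, did not pass in any pair. Between Abl.3 and Abl.4 it passed in 1 of 9 alternatives, that with a replicate block (-0.30, edgeR adjusted p = 0.048).

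Chromosome 10 as a whole moved with Tdg. Over its 431 tested genes the median maternal share was 0.337 and 0.336 in the libraries of Abl.2, against 0.502 to 0.505 in the other lines. The median gene of the chromosome was higher on the paternal allele in Abl.2 by 0.99 and 0.93 (log2, against Abl.3 and Abl.4) and differed on the maternal allele by -0.02 and -0.06. By abundance its median was higher by 0.59 and 0.44 over 511 genes. Among the 431 genes, 49 had an Abl.2 share at or below that of Tdg. Tet1 lies on the same chromosome, and its level in Abl.2 went the other way. The part of the chromosome in the values of Tdg was not tested.

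**Figure D4:**
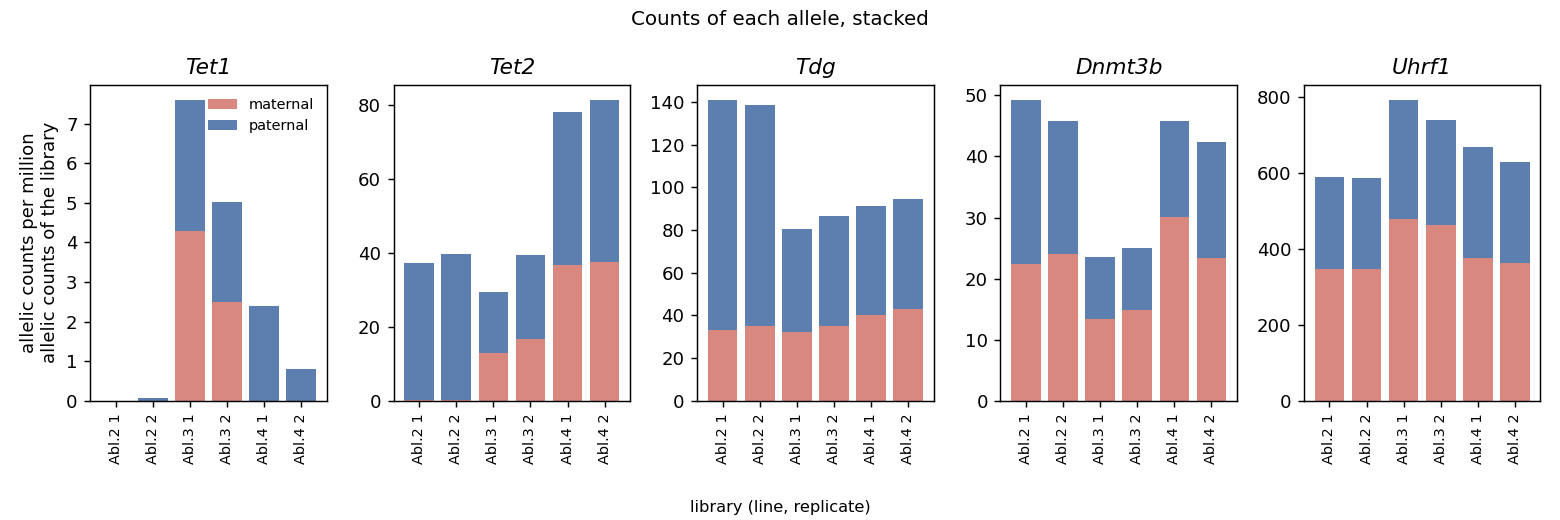
Maternal and paternal counts of each gene in CPM (scaled to the allelic total of the library), stacked in 1 bar per library, for Tet1, Tet2, Tdg, Dnmt3b and Uhrf1, each with its own axis from 0. Maternal Tet2 is at 0.132 and 0.260 in Abl.2, and paternal Tdg is at 108 and 103 in Abl.2 against 48.1 to 51.6 in the other lines.

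Across the genes with enough counts, the allelic difference passed for 2 of 8 between Abl.2 and Abl.3 (Tet2 and Tdg, 28.4% of all genes), for the same 2 of 8 between Abl.2 and Abl.4 (22.3%) and for 1 of 8 between Abl.3 and Abl.4 (Uhrf1, 16.5%). Within lines, the test against even alleles passed for 3 of 8 in Abl.2 (Uhrf1, Tet2, Tdg; 49.1% of all genes), 5 of 8 in Abl.3 (Dnmt1, Uhrf1, Uhrf2, Tet2, Tdg; 45.1%) and 4 of 8 in Abl.4 (Dnmt3a, Dnmt3b, Uhrf1, Tdg; 39.9%). The call of Tet2 in Abl.3 was lost without either library of Abl.3 and with DESeq2 (adjusted p from 0.0702 to 0.154; from 0.0178 over the alternatives), and that of Tdg in Abl.4 without either library of Abl.4 (0.108 and 0.0548; from 0.00874). None of these counts is read as particular to the 8 genes. In the authors' deposited table, the limits leave out 0.5 for Uhrf1 in all 3 lines, Tet2 in Abl.2 and Tdg in Abl.2 and Abl.3.

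Tested allele by allele, the maternal level passed for 5, 2 and 5 of the 8 genes (Abl.2 against Abl.3, Abl.2 against Abl.4, Abl.3 against Abl.4), beside 39.6%, 33.4% and 33.0% of all genes. The paternal level passed for 5, 3 and 5 of 8, beside 43.5%, 37.3% and 33.0%. Against Abl.3, the maternal allele of Dnmt3b, Uhrf1, Uhrf2, Tet2 and Tet3 and the paternal allele of Dnmt3b, Uhrf1, Uhrf2, Tet2 and Tdg differed in Abl.2. Against Abl.4, maternal Uhrf2 and Tet2 and paternal Dnmt3b, Uhrf2 and Tdg did so, the paternal call of Uhrf2 (0.31, edgeR adjusted p = 0.0447) being lost without any 1 library (adjusted p from 0.0612 to 0.2). Between Abl.3 and Abl.4 the calls were nearly all on the side of a lower level in Abl.3, 4 of 5 for the maternal (Dnmt1, Dnmt3b, Tet2, Tet3) and 5 of 5 for the paternal allele (the same with Dnmt3a), where 17.3% and 18.4% of all genes were lower in Abl.3. Maternal Uhrf1 was the exception. The Tet3 calls were not firm here either. The paternal one (-0.44, edgeR adjusted p = 0.0425) was lost without any 1 library (adjusted p from 0.0612 to 0.241), the maternal one against Abl.4 without replicate 2 of Abl.3 or replicate 1 of Abl.4 (up to 0.224), and that between Abl.2 and Abl.3 without replicate 1 of Abl.2 or replicate 2 of Abl.3 (up to 0.128). Paternal Uhrf1 between Abl.2 and Abl.3 was lost without either library of Abl.2 or replicate 1 of Abl.3 (up to 0.226), and maternal Uhrf2 between Abl.2 and Abl.4 without replicate 1 of Abl.2 or either library of Abl.4 (up to 0.299).

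Dnmt3b (ENSMUSG00000027478, chr2:153649450-153687730, plus strand, GRCm38), a de novo methyltransferase, was at 12.6 and 11.7 TPM in Abl.2, 5.57 and 5.82 TPM in Abl.3, and 12.1 and 10.8 TPM in Abl.4. Abl.3 lay below both other lines, which overlapped. Abl.2 was higher than Abl.3 by 0.97 (SE 0.119, limma adjusted p = 0.00135), Abl.3 was lower than Abl.4 by -0.90 (limma adjusted p = 0.00215) on the log2(TPM + 1) scale, and both calls were kept in all 15 alternatives. Abl.2 and Abl.4 did not pass, and the adjusted p of that pair lay between 0.3 and 0.995 in the alternatives.

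The difference in Dnmt3b was seen on both alleles. Maternal CPM were 22.4 and 24.0 in Abl.2, 13.4 and 14.9 in Abl.3, and 30.1 and 23.3 in Abl.4, and paternal CPM were 26.8 and 21.8, 10.2 and 10.2, and 15.6 and 19.0. Both alleles were at their lowest in Abl.3, and the paternal allele was highest in Abl.2 and next in Abl.4, without overlap. Abl.2 was higher than Abl.3 by 0.72 for the maternal (edgeR adjusted p = 0.00527) and by 1.26 for the paternal allele (edgeR adjusted p = 7.17e-05). Abl.3 was lower than Abl.4 by -0.92 for the maternal (edgeR adjusted p = 0.0015) and by -0.77 for the paternal allele (edgeR adjusted p = 0.00594). Without replicate 1 of Abl.3, the maternal call against Abl.2 (adjusted p = 0.0521) and the paternal call against Abl.4 (adjusted p = 0.0504) just missed the threshold, within ranges of 0.00186 to 0.0521 and 0.00328 to 0.0504 over the alternatives. The paternal allele was also higher in Abl.2 than in Abl.4 by 0.49 (edgeR adjusted p = 0.0426), a call lost without replicate 1 of Abl.2, replicate 1 of Abl.4 or either library of Abl.3, with adjusted p of up to 0.334.

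The maternal share of Dnmt3b was 0.455 and 0.524 in Abl.2, 0.569 and 0.593 in Abl.3, and 0.658 and 0.551 in Abl.4, from 460 to 1233 counts. It was above even in Abl.4 (log2 ratio 0.62, edgeR adjusted p = 0.0141), but without replicate 1 of Abl.4 the ratio was 0.30 and did not pass (adjusted p = 0.29, the highest over the alternatives, the lowest being 0.00326). No difference in its share between lines passed; that between Abl.2 and Abl.4 (-0.68, edgeR adjusted p = 0.0697) passed without replicate 2 of Abl.4, and its adjusted p ranged from 0.00868 to 0.397 when single libraries were left out.

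Dnmt3a (ENSMUSG00000020661, chr12:3806007-3914443, plus strand, GRCm38), the other de novo enzyme, was at 104 and 96.2 TPM in Abl.2, 77.9 and 62.7 TPM in Abl.3, and 113 and 82.8 TPM in Abl.4. Abl.3 was lowest, but its difference did not pass against Abl.2 (0.51, 95% interval 0.10 to 0.92, limma adjusted p = 0.0536) or Abl.4 (-0.47, 95% interval -0.87 to -0.06, limma adjusted p = 0.0707). The first passed in 4 alternatives: with a replicate block, with a mean of at least 5 TPM and without either library of Abl.4. The second passed in 2, with the block and without replicate 2 of Abl.4. Over the alternatives the adjusted p ranged from 0.00811 to 0.538 and from 0.0113 to 0.36, lowest with the block in both. Abl.2 and Abl.4 overlapped (difference 0.04, 95% interval -0.37 to 0.45). The maternal share was 0.470 and 0.443 in Abl.2, 0.532 and 0.428 in Abl.3, and 0.431 and 0.442 in Abl.4, from 1019 to 1722 counts. The replicates of Abl.3 lay on both sides of even, and the paternal excess passed in Abl.4 (log2 ratio -0.37, edgeR adjusted p = 0.0455). That call was lost without either library of Abl.2 (adjusted p = 0.0571 and 0.0562) or of Abl.4 (0.202 and 0.129), and ranged from 0.0143 to 0.202 over the alternatives. On the paternal allele alone, Abl.3 was lower than Abl.4 by -0.47 (edgeR adjusted p = 0.0124), which was lost without either library of Abl.3 (0.0783 and 0.0581, the alternatives ranging from 0.00515). Exons of Dnmt3a share bases with the antisense gene Dnmt3aos, listed at no more than 0.2 TPM.

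Dnmt1 (ENSMUSG00000004099, chr9:20907209-20959888, minus strand, GRCm38), the maintenance methyltransferase, was at 216 and 211 TPM in Abl.2, 185 and 176 TPM in Abl.3, and 247 and 235 TPM in Abl.4. The lines did not overlap, with Abl.3 lowest and Abl.4 highest. Abl.2 was higher than Abl.3 by 0.24 (SE 0.0711, limma adjusted p = 0.0376), Abl.3 was lower than Abl.4 by -0.41 (limma adjusted p = 0.00578), and Abl.2 against Abl.4 did not pass (-0.17, limma adjusted p = 0.107). The call between Abl.2 and Abl.3 was lost without any 1 of the 4 libraries compared (adjusted p from 0.0835 to 0.171). Both calls were lost when libraries were centred on their medians, which lowered the differences to 0.06 (adjusted p = 0.615) and -0.17 (adjusted p = 0.14). Over all alternatives the adjusted p ranged from 0.0136 to 0.615 and from 0.00189 to 0.14.

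Dnmt1 had the deepest allele counts of the 9 genes in the allele table, from 19097 to 31871 per library. Its maternal share was 0.516 and 0.514 in Abl.2, 0.535 and 0.516 in Abl.3, and 0.499 and 0.504 in Abl.4. All 6 values were near even, and the maternal excess passed in Abl.3 (log2 ratio 0.15, edgeR adjusted p = 0.00426), though not without replicate 1 of Abl.3 (adjusted p = 0.13, the highest of a range from 0.00133). In Abl.2 it missed the threshold (0.09, edgeR adjusted p = 0.0505) and passed in 5 of 11 alternatives (0.0418 to 0.264). By allele, the lower level of Dnmt1 in Abl.3 than in Abl.4 passed for the paternal (-0.40, edgeR adjusted p = 0.00263) and the maternal allele (-0.26, edgeR adjusted p = 0.0246). The maternal call was lost without either library of Abl.3 or replicate 1 of Abl.4 (adjusted p from 0.0711 to 0.148; 0.00961 to 0.148 over all alternatives).

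Uhrf1 (ENSMUSG00000001228, chr17:56303321-56323486, plus strand, GRCm38), which binds hemimethylated CpGs and brings DNMT1 to them, was at 278 and 266 TPM in Abl.2, 353 and 315 TPM in Abl.3, and 317 and 286 TPM in Abl.4. Both Abl.2 libraries were below all others, and Abl.3 and Abl.4 overlapped. Abl.3 stood above Abl.4 by 0.15, which did not pass (limma adjusted p = 0.245) but did so in 3 of 15 alternatives. These were libraries centred on their medians (0.39, limma adjusted p = 0.0231) and summed allelic counts in edgeR (0.25, adjusted p = 0.0356) and DESeq2 (0.26, adjusted p = 0.0166). Abl.2 was lower than Abl.3 by -0.29 (SE 0.0905, limma adjusted p = 0.0425), and Uhrf1 and Tet1 were the 2 genes that passed as lower in Abl.2 than in Abl.3. The call was lost without any 1 of the 4 libraries of these lines (adjusted p from 0.0599 to 0.202; 0.00013 to 0.202 over all alternatives).

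Uhrf1 showed a small maternal excess in every library, where parent of origin cannot be told apart from strain. The maternal share was 0.588 and 0.591 in Abl.2, 0.605 and 0.625 in Abl.3, and 0.563 and 0.576 in Abl.4, from 12610 to 15814 counts. The 3 lines did not overlap, and the log2 ratio of 0.52, 0.68 and 0.41 passed in each (edgeR adjusted p = 1.32e-06, 3.48e-07 and 2.12e-05), in all 11 alternatives. The ratio was higher in Abl.3 than in Abl.4 by 0.27 (edgeR adjusted p = 0.00862). Without replicate 2 of Abl.3 it was 0.21 and did not pass (adjusted p = 0.0885, the highest of the alternatives, the lowest being 0.0043). Of the 10 nearest tested genes, Ptprs, at 0.555, 0.595 and 0.549, and Fem1a, at 0.511, 0.540 and 0.509, also lay above even in each line. The genes next to Uhrf1 did not: Kdm4b was at 0.506, 0.506 and 0.466, and Plin3 at 0.604, 0.0183 and 0.785 in Abl.2, Abl.3 and Abl.4. Over the 43 tested genes within 5 Mb the median was 0.491, 0.542 and 0.498. Chromosome 17 as a whole had a median share of 0.549 and 0.546 in the libraries of Abl.3, against 0.497 to 0.503 in the other lines, and its part in the values of Uhrf1 was not tested. By allele, maternal Uhrf1 was lower in Abl.2 than in Abl.3 (-0.44, edgeR adjusted p = 0.000952) and higher in Abl.3 than in Abl.4 (0.35, edgeR adjusted p = 0.00591). The second was lost without replicate 1 of Abl.3 (adjusted p = 0.0536; 0.00165 to 0.0536 over the alternatives).

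Uhrf2 (ENSMUSG00000024817, chr19:30030513-30093722, plus strand, GRCm38), the relative of Uhrf1, was at 44.1 and 41.1 TPM in Abl.2, 24.1 and 25.4 TPM in Abl.3, and 38.0 and 45.0 TPM in Abl.4. Abl.3 lay below the other lines, which overlapped and differed by 0.04 (limma adjusted p = 0.806). With summed allelic counts in place of TPM, Abl.2 passed as higher than Abl.4. The difference was then 0.35 in edgeR (adjusted p = 0.0167) and 0.37 in DESeq2 (adjusted p = 0.00562). Abl.2 was higher than Abl.3 by 0.76 (SE 0.109, limma adjusted p = 0.00254), a call kept in all 15 alternatives. Abl.3 was lower than Abl.4 by -0.72 (limma adjusted p = 0.00363). That call was lost when the summed allelic counts stood in for TPM, where the edgeR difference was -0.24 (adjusted p = 0.0788); over the alternatives it ranged from 0.0027 to 0.109. Uhrf1 and Uhrf2 thus went opposite ways between Abl.2 and Abl.3, the call of Uhrf1 being the less firm.

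The maternal share of Uhrf2 was 0.502 and 0.464 in Abl.2, 0.419 and 0.454 in Abl.3, and 0.477 and 0.460 in Abl.4, from 1487 to 3130 counts. Only the paternal excess in Abl.3 passed (log2 ratio -0.37, edgeR adjusted p = 0.00937), and it was lost without replicate 1 of Abl.3 (adjusted p = 0.161; from 0.00884 over the alternatives). Both alleles were higher in Abl.2 than in Abl.3, the maternal by 0.75 (edgeR adjusted p = 0.00061) and the paternal by 0.48 (edgeR adjusted p = 0.00381), in all 9 alternatives.

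Mbd2 (ENSMUSG00000024513, chr18:70568189-70626131, plus strand, GRCm38), the reader of methylated CpGs, varied least on the log2(TPM + 1) scale as deposited. It was at 269 and 275 TPM in Abl.2, 295 and 293 TPM in Abl.3, and 299 and 276 TPM in Abl.4. Abl.2 lay below the others and Abl.3 lay within the range of Abl.4. The log2 differences were -0.11 (95% interval -0.28 to 0.06) for Abl.2 against Abl.3, -0.08 (-0.25 to 0.10) for Abl.2 against Abl.4 and 0.03 (-0.14 to 0.21) for Abl.3 against Abl.4, with limma adjusted p of 0.267, 0.447 and 0.748. When libraries were centred on their medians, Mbd2 passed as lower in Abl.2 than in Abl.3 (-0.29, adjusted p = 0.0292) and higher in Abl.3 than in Abl.4 (0.28, adjusted p = 0.0364), where Dnmt1 varied less, and these were the lowest of ranges that reached 0.524 and 0.851.

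The genes whose centred log2(TPM + 1) profile over the 6 libraries was closest to that of Tet1 were Smpd3 (root mean square difference 0.117), Alpl (0.119) and Tnfrsf13c (0.126). Alpl, tissue-nonspecific alkaline phosphatase, was at 159, 641 and 433 TPM on average in Abl.2, Abl.3 and Abl.4, and Tnfrsf13c, the BAFF receptor of B cells, at 13.2, 53.7 and 41.3 TPM. The profile of Tet2 was most like those of Zeb2 (0.0368), Serp1 (0.0728) and Ptk2 (0.0752). Zeb2, a zinc finger repressor, was at 36.0, 29.1 and 68.0 TPM. These profiles share libraries and 3 lines, so the likeness is a description.

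Other genes of the methylation pathways were counted from lists. Over all tested genes, 25.9% were higher and 14.0% lower in Abl.2 than in Abl.3, 15.0% and 18.4% against Abl.4, and 11.3% and 26.8% between Abl.3 and Abl.4, with medians of 0.10, -0.03 and -0.15, and every list below is to be set beside these shares. Of 6 tested methyl-CpG binding proteins besides Mbd2, 1 was higher and 1 lower in Abl.2 than in Abl.3, 1 higher and 2 lower than in Abl.4, and 1 lower in Abl.3 than in Abl.4, with medians of 0.20, -0.0025 and 0.11. Zbtb38, a zinc finger protein that binds methylated DNA, was at 6.14 and 4.27 TPM in Abl.2, 1.09 and 0.9 TPM in Abl.3, and 10.5 and 7.75 TPM in Abl.4. The lines did not overlap, and Abl.3 was lower than Abl.4 by -2.33 (SE 0.213, limma adjusted p = 0.000482). Mbd4, a glycosylase that acts at methylated CpGs, was lower in Abl.2 than in Abl.3 by -0.87 (limma adjusted p = 0.00183). Mbd3, the NuRD subunit that takes the place of Mbd2, was higher in Abl.2 than in Abl.4 by 0.67 (limma adjusted p = 0.016) and lies on chromosome 10.

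Of 8 tested partners of the methyltransferases, 2 were higher and 1 lower in Abl.2 than in Abl.3, 1 and 1 against Abl.4, and 0 and 1 between Abl.3 and Abl.4, with medians of -0.08, -0.04 and -0.07. By the largest called change of each gene, the first were the higher Usp7, a deubiquitinase that stabilises DNMT1, in Abl.2 than in Abl.3 (0.75, limma adjusted p = 0.0111), the lower Lig1, the replicative DNA ligase, in Abl.2 than in Abl.4 (-0.73, limma adjusted p = 0.00039) and the higher Setdb1, a histone methyltransferase, in Abl.2 than in Abl.3 (0.36, limma adjusted p = 0.0146). Dnmt3l, a cofactor of the de novo enzymes in germ cells, was listed at 0 in all 6 libraries. Of 11 genes of methyl donor and oxoglutarate metabolism, 4 were higher in Abl.2 than in Abl.3 and none lower, 1 was higher than in Abl.4, and 3 were lower in Abl.3 than in Abl.4, with medians of 0.25, 0.06 and -0.17. All tested genes passed as higher in Abl.2 than in Abl.3 in 25.9% and as lower in Abl.3 than in Abl.4 in 26.8% of cases. The 3 included D2hgdh (-0.48), which clears hydroxyglutarate, and Mtr (-0.44), methionine synthase, with limma adjusted p of 0.0238 and 0.0162.

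Of 11 tested partners and repair genes of active demethylation, 3 were higher and 2 lower in Abl.2 than in Abl.3, 3 and 3 against Abl.4, and 2 and 3 between Abl.3 and Abl.4, with medians of 0.12, 0.03 and -0.14, beside 0.10, -0.03 and -0.15 and a called share of 39.8%, 33.5% and 38.1% over all tested genes. The stress-induced Gadd45 genes moved apart. Gadd45g was higher in Abl.2 than in Abl.4 by 1.49 (limma adjusted p = 0.000128), Gadd45a was lower by -1.12 (limma adjusted p = 0.00145), and Gadd45b, on chromosome 10, was higher in Abl.2 than in Abl.3 by 1.02 (limma adjusted p = 0.000517). Of 11 NuRD subunits, 3 were higher and 1 lower in Abl.2 than in Abl.3, 1 and 1 against Abl.4, and 0 and 1 between Abl.3 and Abl.4, with medians of 0.14, 0.04 and -0.11. They included Mta3 (-0.69 in Abl.2 against Abl.4, limma adjusted p = 0.0064), Chd3 (-0.64 in Abl.3 against Abl.4, limma adjusted p = 0.0103) and Hdac2, on chromosome 10 (0.63 in Abl.2 against Abl.3, limma adjusted p = 0.00306).

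None of 12 germline genes known to be held silent by promoter methylation in somatic cells reached the filter in these lines, and their summed level was 0 to 0.4 TPM per library. Dnmt1 and Uhrf1 are known to be expressed most in dividing cells. Of 12 proliferation markers, 2 were higher and 1 lower in Abl.2 than in Abl.3, 1 and 4 against Abl.4, and 0 and 3 between Abl.3 and Abl.4, with medians of -0.0033, -0.17 and -0.16. Over all genes 18.4% were lower in Abl.2 than in Abl.4 and 26.8% lower in Abl.3 than in Abl.4. Their summed level was 3804 to 3950 TPM in Abl.2, 3956 to 4073 TPM in Abl.3 and 4339 to 4564 TPM in Abl.4. Rrm2, a subunit of ribonucleotide reductase, was lower in Abl.2 than in Abl.4 by -1.28 (limma adjusted p = 9.85e-05), Top2a by -0.51 (limma adjusted p = 0.00708), and Cdk1, on chromosome 10, was higher in Abl.2 than in Abl.3 by 0.55 (limma adjusted p = 0.00303). The part of proliferation in the levels of Dnmt1 and Uhrf1 was not tested.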

How the data were processed

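RNA-seq of the 6 libraries was used as deposited. Per the file headers, DESeq2 gave the TPM of the deposited abundance table. The deposited allele table gives whole-number maternal and paternal counts at SNPs of each gene, and the imbalance table the authors' fraction of maternal counts, with replicates averaged, and its confidence limits. The submitters' processing notes name STAR 2.5.4a, SAMtools, GATK and DESeq2, and the builds GRCm38, mm10 and GRCh37, with no role; the SNP list, annotation and strand setting are not given in the sources used here. Per the labels' protocols, libraries were made with SMART-seq v4, which carries no molecular identifiers. The starts of the 10 genes equal those of GENCODE on GRCm38.

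TPM keep no depth. Abundance was tested in R 4.3.3 on log2(TPM + 1) with limma 3.58.1, by lmFit and eBayes with a trend, for genes whose mean reached 1 TPM. This scale makes changes of low genes look smaller. Allelic counts were tested with the quasi-likelihood test of edgeR 4.0.16, with a term for each library and 1 for the allele in each line, for genes with at least 20 allelic counts in each library, and each allele's level with the allelic total as library size. P-values were adjusted over all genes tested by the method of Benjamini and Hochberg, with a threshold of 0.05. DESeq2 1.42.0 served in alternatives. A library's share has a 95% Wilson interval, and limits of a count of 0 take 3 counts.

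All 10 genes were named, with, from each list, the 3 genes of the largest called difference in any pair, and, for the 2 genes of widest range, the 3 closest profiles; some genes of the lists that this rule takes in are counted but not reported here by name. The genes, lists and tests were chosen with earlier results of these data known. Neighbours and genes counted at 5 or fewer outside that rule were picked after their values were seen. Replicate numbers were not taken to pair libraries. The scripts were tested on simulated data.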

Additional observations from a re-analysis of the deposited data

Results flagged for a closer look

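The allele balance of 3 genes differed between lines by a test of the difference itself, edgeR's quasi-likelihood test over 8702 genes, of which 28.4% (Abl.2 against Abl.3), 22.3% (Abl.2 against Abl.4) and 16.5% (Abl.3 against Abl.4) passed. For Tet2 the log2 ratio of maternal to paternal counts was lower in Abl.2 by -7.13 than in Abl.3 and by -7.33 than in Abl.4. In Abl.2, 3 of 844 and 7 of 1064 counts were maternal. For Tdg it was lower in Abl.2 by -1.06 than in Abl.3 and by -1.32 than in Abl.4, beside a median maternal share of 0.337 and 0.336 over its chromosome in Abl.2. For Uhrf1 it was higher in Abl.3 than in Abl.4 by 0.27, beside a median share over its chromosome of 0.549 and 0.546 in Abl.3 and 0.497 and 0.503 in Abl.4. Without replicate 2 of Abl.3 it was 0.21 and did not pass (adjusted p = 0.0885). Groups of 2 libraries are too small for a test of outlying samples.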

How the results depend on the processing

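No member's difference that passed changed direction in any alternative. Counts of members and of all genes passing moved by over 1.5 times as follows. For abundance, members passing between Abl.2 and Abl.3 numbered 4 without the filter, 4 with quantile normalisation and 1 when a log2 difference of at least 1 was also required. For Abl.2 against Abl.4 they numbered 1 with a mean of at least 5 TPM, 4 with summed allelic counts in edgeR, 4 with the same in DESeq2 and 1 with the size requirement. For Abl.3 against Abl.4 the size requirement left 1. Over all genes the size requirement left 1160, 1107 and 1042. A share difference of at least 0.2 left 1 member for Abl.2 against Abl.3 and 0 for Abl.3 against Abl.4, and 1317, 1041 and 602 genes. With chromosomes 4 and 10 left out, which was chosen after seeing the data, 1 member passed in each comparison with Abl.2, and 1444 and 928 genes. With Abl.3 and Abl.4 alone and a minimum of 10 counts, also chosen then, 2 members passed (Uhrf1 and Tet1), beside 15.4% of all genes.

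With a replicate block, 5 members passed for the paternal level between Abl.2 and Abl.4 in place of 3, and no other count moved by over 1.5 times. The block ended no member's call. For abundance it added Dnmt3a between Abl.3 and each other line (adjusted p = 0.00811 and 0.0113), Dnmt1 between Abl.2 and Abl.4 (0.0411) and Tdg between Abl.3 and Abl.4 (0.0494). For the paternal level it added Dnmt1 between Abl.2 and each other line (edgeR adjusted p = 0.0253 and 0.0374) and Uhrf1 between Abl.2 and Abl.4 (0.0372). For the maternal level it added Uhrf2 and Tdg between Abl.3 and Abl.4 (edgeR adjusted p = 0.0294 and 0.048). Deviations of same-numbered libraries correlated at 0.104, 0.187 and 0.161 over genes, with 2 pairs each; no label ties the numbers to a shared batch, and they were not taken to pair the libraries.

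When each library was left out in turn, members passing for abundance ranged from 3 to 6, 2 to 2 and 4 to 6 in the 3 pairs, and all genes from 2466 to 4541, 1970 to 3296 and 2343 to 3691. For the allelic difference the ranges were 2 to 3, 2 to 3 and 0 to 1 members, and 2064 to 2604, 1642 to 1913 and 1034 to 1317 genes. For imbalance they were 3 to 4, 2 to 6 and 1 to 4 members, and 3206 to 4432, 2740 to 4101 and 2751 to 3407 genes. For the maternal level they were 4 to 5, 1 to 2 and 3 to 5 members, and 2424 to 3816, 2001 to 2929 and 1842 to 2929 genes; for the paternal level 4 to 6, 1 to 2 and 2 to 4 members, and 2804 to 4097, 2407 to 3202 and 1824 to 2801 genes. A line left with 1 library was assumed to vary like the others. Of the results for single genes, 1320 stayed on their side of the threshold, 99 were lost and 41 gained; the causes were not tested. Depth limits Tet1, whose allelic counts were at most 151 per library, and TPM carry no depth.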

Other observations

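Among the listed genes with enough allelic counts, some were far from even in 1 line or in all 3. Zbtb38, which binds methylated DNA, was maternal in all counted reads of Abl.2, a mean share of 1, against 0.70 and 0.924 in Abl.3 and Abl.4, and the allelic difference passed in each pair (edgeR adjusted p = 6.8e-06, 9.78e-05 and 0.00252); the lowest library held 50 counts. On chromosome 4, whose median share in Abl.2 was 0.998 in both libraries, the NuRD subunits Hdac1 and Rbbp4 had Abl.2 shares of 0.997 and 0.998. In Abl.3 and Abl.4 Hdac1 was at 0.436 and 0.450, and Rbbp4 at 0.554 and 0.563. On chromosome 10, Hdac2 had a share of 0.291 in Abl.2, and Mbd3 0.278. Ahcy, which clears the product of methylation reactions, was paternal in every line, with shares of 0.134, 0.0907 and 0.103. Parent of origin and strain cannot be told apart there. These values were picked after being seen.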
